A study of Rattus norvegicus with 18 samples.

Results

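The genes described here are 10 genes of microglia in RNA from rat cortical neuroglial cultures. They are the chains of the complement protein C1q (C1qa, C1qb, C1qc), Trem2 and its signalling partner Tyrobp, the intracellular marker Aif1, and the surface receptors Csf1r, Cx3cr1, P2ry12 and Itgam. They were chosen by name, and all 10 were found among the 31463 rows of the count files. All 10 were also among the 14398 genes that passed the filter on low counts. The 18 libraries formed 6 groups of 3, all from primary cortical cultures of newborn Wistar rats on day 10 in vitro, with RNA taken 4 h after the glutamate model. Control received no glutamate, Glutamate received 100 µM glutamate, and Memantine is placed by the design text in the glutamate model with 100 µM of memantine, a blocker of NMDA receptors. Glutamate_vesicles, Glutamate_secret and Glutamate_BPC received material secreted by human glial progenitor cells the day before 100 µM glutamate. Glutamate_vesicles is the extracellular vesicle group. The other preparations were a protein fraction and the whole secretome, and the labels do not tell which name, Glutamate_secret or Glutamate_BPC, stands for which. All cultures, Control included, were grown with cytosine arabinoside to limit the proliferation of glial cells.

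Microglia are the resident macrophages of the brain and are a minor population of such cultures. They depend on signalling through the receptor Csf1r and survey the tissue with receptors that include Cx3cr1, which binds the neuronal chemokine fractalkine, and P2ry12, which senses nucleotides. C1q is the recognition molecule of the classical complement pathway. It is assembled from the products of the neighbouring genes C1qa, C1qb and C1qc, tags synapses and debris for removal, and in the brain is made chiefly by microglia. Trem2 is a receptor for lipids and debris that signals through the adaptor Tyrobp. Aif1 encodes the calcium-binding protein Iba1. Itgam encodes the CD11b chain of the complement receptor CR3.

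Promoter sequences are shown for 4 of the genes because the expression data below fall into a pair of patterns, with C1qa and C1qb in one and Itgam and Cx3cr1 in the other. Each runs 5′ to 3′ from 250 bases before to 50 bases after the transcription start in RefSeq on the assembly GRCr8. The intervals are chr5:154419884-154420183 on the minus strand for C1qa, chr5:154407778-154408077 on the minus strand for C1qb, chr1:192089342-192089641 on the plus strand for Itgam and chr8:128677017-128677316 on the minus strand for Cx3cr1. Capitals mark GAGGAA or its reverse complement TTCCTC, a core sequence bound by the macrophage factor PU.1.
C1qa: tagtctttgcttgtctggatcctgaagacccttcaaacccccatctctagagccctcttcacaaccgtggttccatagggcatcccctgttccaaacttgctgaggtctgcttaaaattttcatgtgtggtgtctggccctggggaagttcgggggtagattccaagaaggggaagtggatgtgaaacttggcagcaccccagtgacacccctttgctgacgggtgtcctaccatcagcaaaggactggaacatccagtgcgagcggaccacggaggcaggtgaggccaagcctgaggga
C1qb: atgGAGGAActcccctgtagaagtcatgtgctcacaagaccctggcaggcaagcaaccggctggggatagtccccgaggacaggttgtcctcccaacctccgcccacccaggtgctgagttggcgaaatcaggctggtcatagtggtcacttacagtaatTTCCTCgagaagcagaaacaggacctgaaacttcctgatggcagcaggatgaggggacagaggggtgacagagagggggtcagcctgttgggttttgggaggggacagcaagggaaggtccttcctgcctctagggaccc
Itgam: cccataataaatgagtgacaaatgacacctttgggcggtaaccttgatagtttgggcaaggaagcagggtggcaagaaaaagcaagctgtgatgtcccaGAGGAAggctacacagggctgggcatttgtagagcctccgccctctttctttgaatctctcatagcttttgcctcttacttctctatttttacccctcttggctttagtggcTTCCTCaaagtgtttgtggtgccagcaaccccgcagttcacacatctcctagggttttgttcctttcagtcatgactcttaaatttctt
Cx3cr1: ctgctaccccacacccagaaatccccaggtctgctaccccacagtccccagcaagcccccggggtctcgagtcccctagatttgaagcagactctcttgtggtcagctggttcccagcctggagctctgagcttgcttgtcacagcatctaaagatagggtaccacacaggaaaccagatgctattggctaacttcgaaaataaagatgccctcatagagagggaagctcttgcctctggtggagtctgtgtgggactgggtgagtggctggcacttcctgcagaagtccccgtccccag
Promoters of 6 of the 10 genes were matched in the table. The sequence was present in 4 of these 6, in both C1qb and Itgam on either strand, and it was also present in 27.6% of 33469 rat promoters of the same length. It was present in Csf1r and Trem2 and was not in these windows of C1qa and Cx3cr1. The presence of the letters therefore did not follow the pair of patterns. In the RefSeq order, C1qb, C1qc and C1qa lie on consecutive rows of chromosome 5.

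The libraries held 8409574 to 17206354 counts each. The 10 genes together received 173 counts in Control 1 and 7243 counts in Memantine 3, the extremes of the 18 libraries. Control 1 stood apart, with ribosomal RNA (rRNA) taking 43.0% of its counts, and results that rest on it are also given without it. The share of rRNA was 13.4 to 43.0% in libraries numbered 1 and 3.04 to 8.15% in those numbered 2. In those numbered 3 it was 6.58 to 26.6%, and groups differed. It was 6.585% in Control 3, 6.601% in Glutamate_vesicles 3 and 8.825% in Memantine 3. In Glutamate_BPC 3 it was 20.1%, in Glutamate 3 20.37% and in Glutamate_secret 3 26.62%. Markers of other cells in the culture were present in all groups, as summed CPM of 2952 to 13230 for 8 astrocyte genes and 340.4 to 1332 for 7 oligodendrocyte lineage genes. The summed level of 8 neuronal genes was 2086 to 2788 CPM in Control and 594 to 1122 CPM in Glutamate. It was 3302, 2272 and 648.1 CPM in Memantine 1, 2 and 3, so that Memantine 3 lay within the range of Glutamate. The level was 582.2 to 892.8 CPM in Glutamate_vesicles, 496.7 to 1047 CPM in Glutamate_secret and 670.9 to 1078 CPM in Glutamate_BPC. In each library of these 3 groups it was below those of Control. Endothelial genes summed to at most 3.92 CPM. Of 16 genes of border macrophages and blood cells, 3 (Ccr2, Ms4a1 and Nkg7) had no count in any library.

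C1qa had the most counts of the 10 genes, 15406 over all libraries. Levels are given as CPM, that is, counts divided by the scaled library size, and are compared between libraries, not between genes. In the order of replicate numbers 1, 2 and 3, C1qa was at 20.0, 38.9 and 41.6 CPM in Control, 52.5, 25.3 and 153.0 CPM in Glutamate, and 7.94, 10.3 and 172.7 CPM in Memantine. It was at 21.0, 36.3 and 63.4 CPM in Glutamate_vesicles, 33.9, 38.4 and 266.1 CPM in Glutamate_secret, and 38.9, 106.1 and 160.4 CPM in Glutamate_BPC. Replicate number 3 was the highest of each group of 3. The Memantine cultures spanned a 21.8-fold range for this gene, from the lowest to the second highest of all libraries. By mean, the order was Glutamate_secret (112.8 ± 132.8 CPM, SD, n = 3), Glutamate_BPC (101.8 ± 60.9), Glutamate (77.0 ± 67.3), Memantine (63.6 ± 94.4), Glutamate_vesicles (40.2 ± 21.5) and Control (33.5 ± 11.8), and every neighbouring pair in this order overlapped.

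C1qb and C1qc followed C1qa from library to library. C1qb was at 7.13, 32.9 and 31.2 CPM in Control, 34.6, 19.7 and 90.6 CPM in Glutamate, and 9.98, 8.05 and 122.8 CPM in Memantine. It was at 17.8, 26.4 and 43.5 CPM in Glutamate_vesicles, 19.1, 31.3 and 175.3 CPM in Glutamate_secret, and 29.6, 83.3 and 141.5 CPM in Glutamate_BPC. Thus Memantine held both low cultures and one high culture for this chain as well. C1qc was at 3.71, 25.01 and 21.9 CPM in Control, 23.4, 18.7 and 69.6 CPM in Glutamate, and 4.72, 7.89 and 87.5 CPM in Memantine. It was at 8.87, 25.5 and 36.9 CPM in Glutamate_vesicles, 16.5, 23.7 and 93.9 CPM in Glutamate_secret, and 18.5, 64.6 and 76.2 CPM in Glutamate_BPC. For C1qb and C1qc the 3 libraries of Control overlapped those of every other group.

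The chains kept closer to one another than their common level did to its mean. The log2 ratio of C1qa to C1qb counts within a library had an SD of 0.36 over the 18 libraries, and the ratio of C1qb to C1qc one of 0.34, while log2 CPM of C1qa had an SD of 1.39. Counting error alone gave SDs of 0.13 and 0.17 for these ratios. The ratio of C1qa to C1qc had an SD of 0.47, which was 0.31 without Control 1. For C1qa to C1qb and for C1qb to C1qc the SDs without that library were 0.26 and 0.33. In Control 1 the log2 ratio of C1qa to C1qc was 2.43, the highest of the libraries. The mean of this ratio was 1.28 in the libraries numbered 1, 0.57 in those numbered 2 and 1.07 in those numbered 3, so that C1qc was relatively most abundant in number 2. The first of these means includes Control 1, and the other libraries numbered 1 ran from 0.75 to 1.245.

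Aif1, Tyrobp and Trem2 had their lowest mean and smallest SD in Control and their highest single value in Glutamate_secret 3. Aif1 was at 8.28, 9.27 and 8.29 CPM in Control, 14.3, 5.58 and 32.2 CPM in Glutamate, and 6.44, 2.00 and 38.4 CPM in Memantine. It was at 7.07, 8.62 and 11.5 CPM in Glutamate_vesicles, 12.9, 13.2 and 105.5 CPM in Glutamate_secret, and 23.9, 38.0 and 73.4 CPM in Glutamate_BPC. All 3 libraries of Glutamate_secret and all 3 of Glutamate_BPC lay above the 3 of Control. In Glutamate_secret the libraries 1 and 2 lay close to the highest Control library, and library 3 was far above them. Ranges that did not overlap Control were found for 16.0% of all tested genes in Glutamate_secret and 24.9% in Glutamate_BPC.

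Tyrobp was at 2.28, 7.16 and 10.4 CPM in Control, 14.1, 2.86 and 28.4 CPM in Glutamate, and 3.43, 1.56 and 43.9 CPM in Memantine. It was at 5.68, 10.6 and 14.9 CPM in Glutamate_vesicles, 11.8, 12.5 and 103.5 CPM in Glutamate_secret, and 17.1, 33.4 and 75.5 CPM in Glutamate_BPC. For this adaptor, all libraries of Glutamate_secret and Glutamate_BPC lay above those of Control. Trem2 was at 5.71, 5.05 and 5.81 CPM in Control, 11.5, 3.49 and 30.5 CPM in Glutamate, and 2.79, 1.83 and 30.7 CPM in Memantine. It was at 7.17, 7.18 and 9.18 CPM in Glutamate_vesicles, 8.19, 7.47 and 70.7 CPM in Glutamate_secret, and 7.97, 21.8 and 53.7 CPM in Glutamate_BPC. For Trem2 the Control libraries lay below all libraries of the 3 groups with secreted material and overlapped Glutamate and Memantine. Of all tested genes, 19.5% in Glutamate_vesicles, 16.0% in Glutamate_secret and 24.9% in Glutamate_BPC had ranges that did not overlap Control.

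The 4 surface receptors had another pattern, with replicate number 1 at the bottom of each group. Csf1r was at 1.14, 11.8 and 9.10 CPM in Control, 2.45, 20.0 and 12.8 CPM in Glutamate, and 1.72, 8.44 and 15.01 CPM in Memantine. It was at 2.19, 14.1 and 8.06 CPM in Glutamate_vesicles, 1.73, 16.7 and 2.71 CPM in Glutamate_secret, and 4.07, 15.2 and 10.7 CPM in Glutamate_BPC. Glutamate_secret 3, where C1qa and Aif1 had their highest values, was the lowest of the libraries numbered 3 for Csf1r. Cx3cr1 was at 0.29, 4.02 and 5.01 CPM in Control, 1.03, 11.9 and 7.001 CPM in Glutamate, and 0.21, 5.05 and 6.54 CPM in Memantine. It was at 0.50, 12.1 and 5.93 CPM in Glutamate_vesicles, 0.32, 17.8 and 4.16 CPM in Glutamate_secret, and 2.90, 19.4 and 8.89 CPM in Glutamate_BPC. The means of Cx3cr1 ran from 10.4 ± 8.3 CPM (SD, n = 3) in Glutamate_BPC to 3.10 ± 2.49 CPM in Control, and neighbours in that order overlapped.

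P2ry12 and Itgam were the least counted of the 10 genes, with 364 and 616 counts over all libraries. P2ry12 received 10 counts in the 6 libraries numbered 1, 235 in those numbered 2 and 119 in those numbered 3. It ranged up to 0.86 CPM in number 1, from 1.08 to 2.65 CPM in number 2 and from 1.01 to 2.53 CPM in number 3. It had no count in Glutamate_vesicles 1 and Glutamate_secret 1, which allows up to 0.299 and 0.472 CPM at a limit of 3 counts. Itgam received 11 counts in the libraries numbered 1, 447 in number 2 and 158 in number 3, and ranged up to 0.54 CPM, from 1.28 to 6.37 CPM and from 0.90 to 3.36 CPM, respectively. It had no count in Control 1, Glutamate 1 and Glutamate_secret 1, which allows up to 0.856, 0.387 and 0.472 CPM. For both genes the 6 libraries numbered 1 lay below all libraries of the other numbers. These limits cover counting error only.

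**Figure D1:**
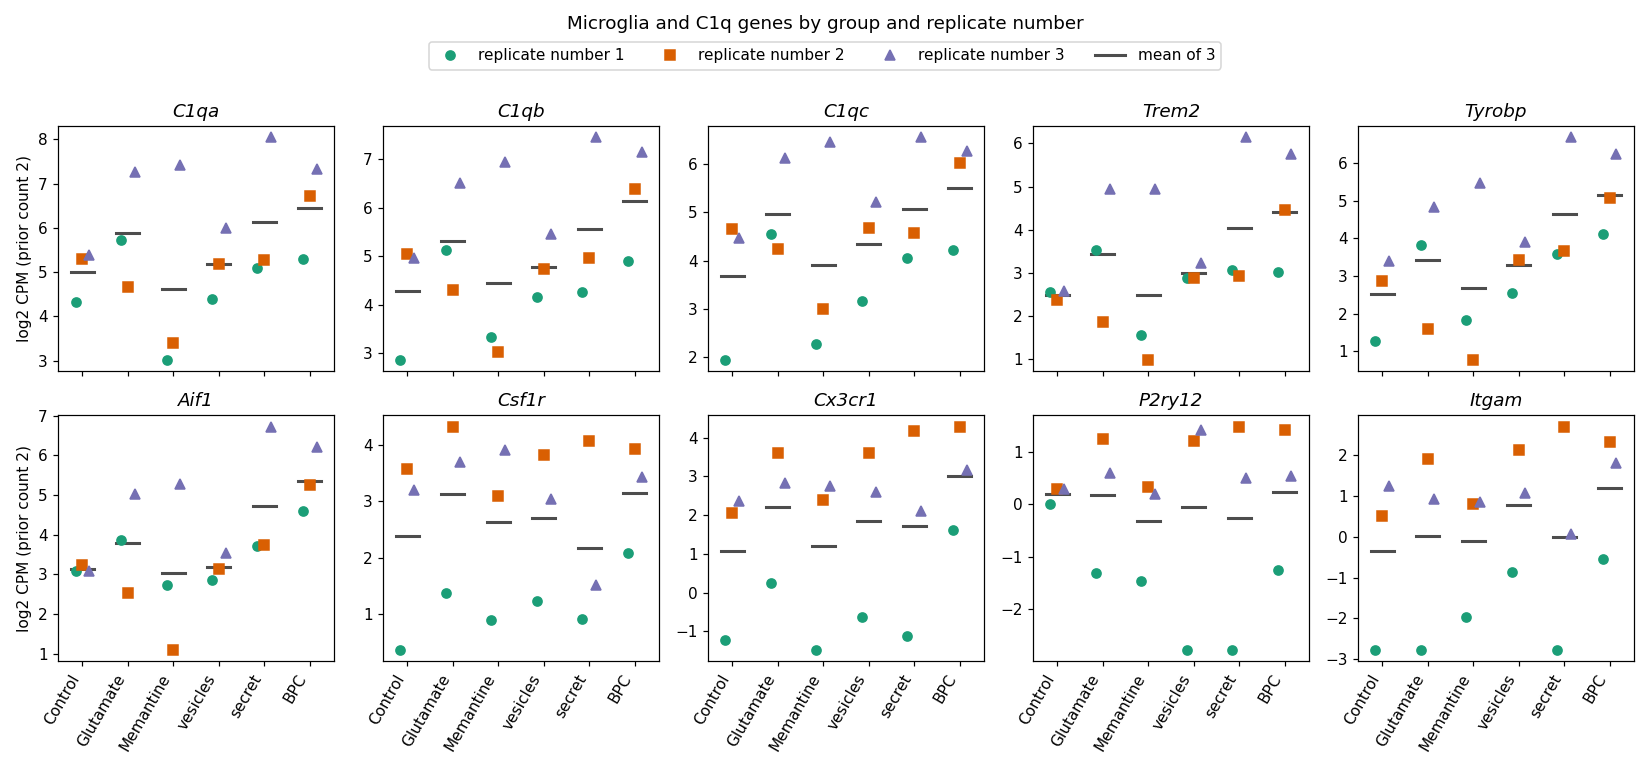
Expression of the 10 genes as log2 CPM (prior count 2, vertical axis) in the 6 groups (horizontal axis), with 1 symbol per library shaped and coloured by replicate number and a bar at the mean of the 3. Replicate number 3 was the highest in every group for C1qa, and replicate number 1 was the lowest in every group for Csf1r, Cx3cr1, P2ry12 and Itgam.

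The first comparison asked whether the treatment groups differed in these genes. None of the 10 differed among the 6 groups by edgeR's quasi-likelihood F test (adjusted p from 0.784 for Aif1 to 1), where 0.00695% of all tested genes were called. At an unadjusted p below 0.05 there were also 0 of 10, against 7.75% of all genes. Each of the 9 comparisons between groups called 0 of 10 after adjustment, as did DESeq2 and edgeR's likelihood-ratio test. Over all genes, 0.0139% were called in Glutamate_vesicles against Control and 0% in the other 8. The model of these tests held no term for the replicate number, so differences between numbers entered the spread. With the number as a block, 0 of 10 were again called over the groups, against 3.45% of all genes. Further values with the block are given with the processing. In a bulk culture, fewer microglia and less RNA per microglial cell cannot be told apart.

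In Glutamate against Control, the estimates were above 0 for all 10 genes, from 0.36 for P2ry12 to 1.46 for Trem2 on the log2 scale, with a median of 1.03 against 0.085 over all tested genes. That median was 0.317 without Glutamate 3 and 0.629 without Control 1, and leaving out 1 library in turn gave at most 1.41. The share of all genes with an estimate above 0 was 56.0%. Their standard errors were 0.95 to 1.45, no gene reached an unadjusted p below 0.05 (8.11% of all genes did), and no gene had separate ranges in the 2 groups (12.2% of all genes did). The Glutamate libraries were themselves spread on both sides of Control. For Aif1 they were at 5.58 CPM in replicate 2 and 32.2 CPM in replicate 3, with Control at 8.28 to 9.27 CPM. Without Glutamate 2, the estimates of P2ry12 and Itgam were -0.30 and -0.49. Among the 8 neuronal markers, 5 were lower at an unadjusted p in the same comparison, as were 5.97% of all genes. None of the 8 were called after adjustment, and 4 were with the replicate block (1.15% of all genes). Their part in the microglial values was not tested.

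In Memantine against Glutamate, the median estimate of the 10 genes was -0.32 (all genes -0.020), and 0 of 10 reached an unadjusted p below 0.05 (5.08% of all genes). Libraries of the same number went different ways. In number 1, 9 of the 10 genes were lower in Memantine, in number 2 all 10 were lower with a median log2 difference of -1.23, and in number 3 7 were higher. Without Memantine 3 the median became -2.23, and it was 0.661 without Glutamate 3. Against Control, Memantine had a median of 0.89 (all genes 0.11), which ran from -1.13 without Memantine 3 to 1.4 without Memantine 2, and 0 of 10 genes at an unadjusted p below 0.05 (1.12% of all genes). No gene had separate ranges in either comparison, as 2.86% of all genes did against Glutamate and 2.35% against Control.

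The 3 secreted preparations were compared with Glutamate and with Control, so that these comparisons share their reference libraries. Against Glutamate, the median estimates of the 10 genes were -0.59 for Glutamate_vesicles, 0.51 for Glutamate_secret and 0.66 for Glutamate_BPC, with 0 of 10 at an unadjusted p below 0.05 in each (1.08%, 0.681% and 1.07% of all genes, respectively). The medians depended on single libraries. For Glutamate_vesicles the median ran from -0.994 without Glutamate 2 to 0.0951 without Glutamate 3. For Glutamate_secret it ran from -0.372 without its library 3 to 1.27 without Glutamate 3, and for Glutamate_BPC from 0.192 without its library 3 to 1.36 without Glutamate 3. No gene had separate ranges, as 6.26%, 3.41% and 7.13% of all genes did. Aif1 differed by 1.33 in Glutamate_secret and by 1.38 in Glutamate_BPC on the log2 scale, neither past the threshold (adjusted p = 1 by edgeR). The value in Glutamate_secret rested on replicate 3 and was -0.41 without it, and that of Tyrobp went from 1.49 to -0.31. In Glutamate_BPC the difference in Aif1 was above 0 in each of the numbers, at 0.73, 2.74 and 1.19 in numbers 1, 2 and 3, and with the replicate number as a block it was 1.55 (unadjusted p = 0.0257 and adjusted p = 0.966 by edgeR).

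Against Control, the medians were 0.49 for Glutamate_vesicles, 1.52 for Glutamate_secret and 1.66 for Glutamate_BPC. The first was 0.139 without Glutamate_vesicles 3 and 0.149 without Control 1, the second 0.489 without Glutamate_secret 3, and the third ran from 1.26 to 2.08 when any one library was left out. With the log2 rRNA share as covariate, the medians of the 10 genes were 0.386, 1.28 and 1.75 in the same order. Of the 8 neuronal markers, 6, 6 and 3 were lower at an unadjusted p in these comparisons (7.61%, 7.6% and 7.42% of all genes). The medians of these markers were -1.68, -1.68 and -1.58, and their part in the microglial values was not tested. In Glutamate_secret, 3 of 10 genes were higher at an unadjusted p below 0.05, where 11.7% of all genes differed and 4.14% were higher, and none after adjustment. These were Aif1 (2.34, SE 0.99, adjusted p = 0.364 by edgeR), Tyrobp (2.64, SE 1.20, adjusted p = 0.403) and Trem2 (2.38, SE 1.12, adjusted p = 0.424). The same 3 genes had ranges that did not overlap Control, as 16.0% of all genes did. Without Glutamate_secret 3 the differences were 0.60 for Aif1, 0.85 for Tyrobp and 0.51 for Trem2. In Glutamate_BPC, Aif1 (2.39, SE 0.99, adjusted p = 0.374) and Tyrobp (2.63, SE 1.19, adjusted p = 0.42) were higher at an unadjusted p, where 11.3% of all genes differed and 3.92% were higher. Aif1, Tyrobp and Trem2 did not overlap Control there, as for 24.9% of all genes. The counts of 3 and 2 genes at an unadjusted p were both 0 without any one of the Control libraries, and they were 0 in Glutamate_secret without its library 3 and 0 in Glutamate_BPC without its library 3 (1 without its library 2). With the replicate number as a block, more of the 10 genes passed an unadjusted p in Glutamate_BPC, and none after adjustment. Of all genes, 21.6% passed an unadjusted p in that comparison with the block. In Glutamate_vesicles 0 of 10 passed an unadjusted p below 0.05 (11.6% of all genes), and Trem2 alone did not overlap Control (19.5% of all genes).

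**Figure D2:**
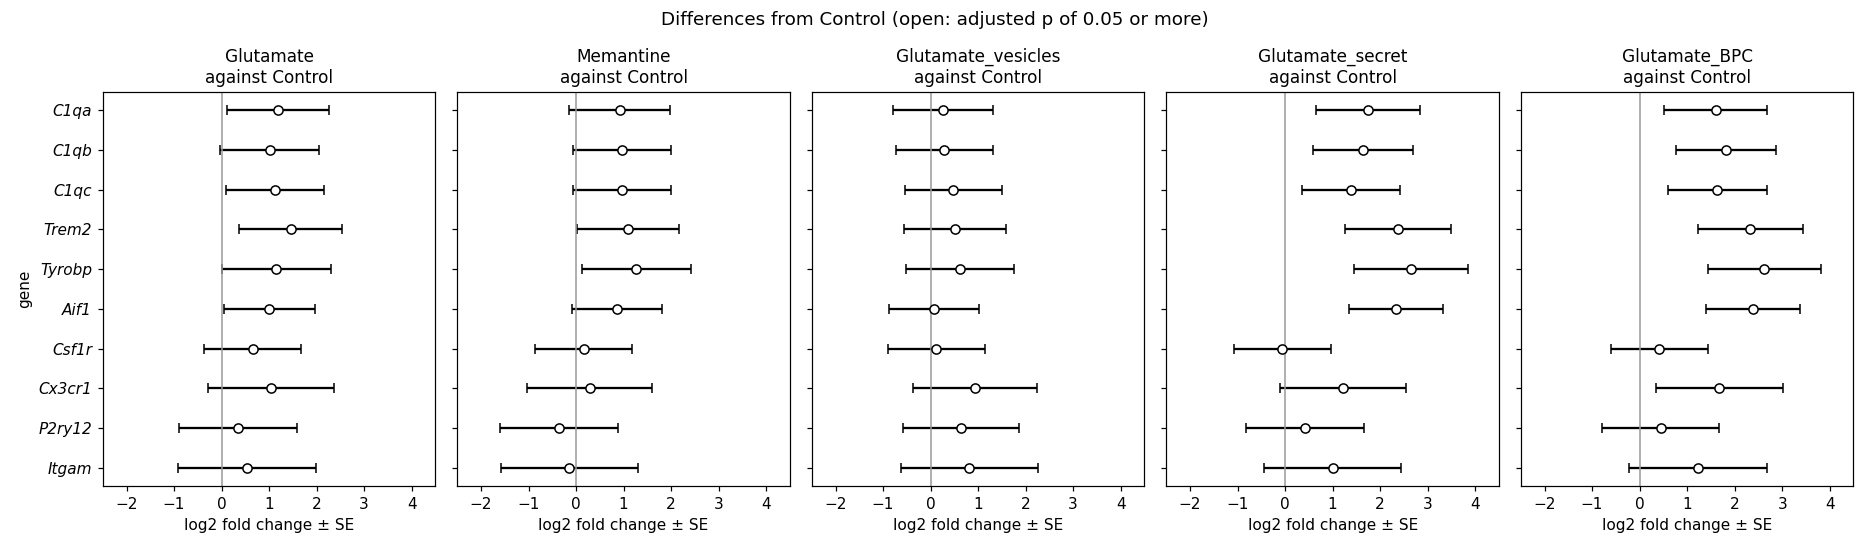
Difference of each treated group from Control for the 10 genes, as log2 fold change (horizontal axis) with bars of 1 SE from edgeR's quasi-likelihood fit over 18 libraries. All symbols are open, meaning adjusted p of 0.05 or more, and the highest values are those of Tyrobp, Aif1 and Trem2 in Glutamate_secret and Glutamate_BPC, between 2.33 and 2.64.

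The second comparison asked whether the genes differed between replicate numbers, with the group kept in the model. The labels do not say what a number stands for. All 10 genes differed among the 3 numbers (adjusted p from 0.000994 for Csf1r, Cx3cr1 and Itgam to 0.00424 for Aif1 by edgeR), as did 60.4% of all tested genes. At an unadjusted p below 0.05 the share of all genes was 65.9%. The number accounted for 78.7% of the sum of squares of log2 CPM for Csf1r, 80.5% for Cx3cr1, 81.1% for Itgam and 74.6% for P2ry12. The group accounted for 2.80 to 12.6% of it in these 4 genes. The median over all tested genes was 42.2% for the number and 22.4% for the group. For the C1q chains the number accounted for 52.8 to 56.8% and the group for 23.4 to 24.0%. Aif1 was the single gene of the 10 in which the group, at 41.7%, took a larger share than the number, at 33.6%. With 6 groups and 3 numbers, the group takes the larger share by chance alone, so these shares cannot be compared directly. By edgeR's test Aif1 differed among the numbers (adjusted p = 0.00424) and not among the groups (adjusted p = 0.784), where none of the 10 genes differed.

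In number 2 against number 1, 5 of 10 genes were higher (61.2% of all genes were called, 32.8% as higher). They were Itgam (log2 fold change 4.20, SE 0.63), Cx3cr1 (3.86, SE 0.45), P2ry12 (3.06, SE 0.65), Csf1r (2.73, SE 0.36) and C1qc (1.23, SE 0.42, adjusted p = 0.0202 by edgeR). The 4 receptors had ranges that did not overlap, as 29.4% of all genes did. The other 5 genes were at -0.14 (Aif1), -0.11 (Trem2), 0.22 (Tyrobp), 0.53 (C1qa) and 0.74 (C1qb) and did not pass the test, nor an unadjusted p below 0.05, which 65.6% of all genes passed.

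In number 3 against number 1, 7 of 10 genes were higher, while 1.52% of all genes were called and 1.14% were called higher. These were Itgam (3.44), Cx3cr1 (3.16), C1qc (2.49), C1qa (2.39), C1qb (2.37), Tyrobp (2.29) and Csf1r (2.12), with SEs of 0.36 to 0.64. P2ry12, Trem2 and Aif1 were at 2.62, 2.01 and 1.69 (adjusted p of 0.0561, 0.0562 and 0.0705 by edgeR). At an unadjusted p below 0.05 all 10 passed, as did 23.9% of all genes. The number of calls rested on single libraries. It was 1 (Cx3cr1) without Memantine 1 and 4 without Glutamate_secret 1, and over all genes 38 and 71 were then called in place of 219. The estimates without Memantine 1 ran from 1.65 for Aif1 to 3.44 for Itgam, and all 10 kept an unadjusted p below 0.05 without any one library. In 3 of the 10 genes, Cx3cr1, P2ry12 and Itgam, the ranges did not overlap, as in 1.80% of all genes.

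In number 3 against number 2, 6 of 10 genes were higher (41.9% of all genes were called, 22.1% as higher). They were Trem2 (2.11, SE 0.51), Tyrobp (2.07, SE 0.53), C1qa (1.85, SE 0.47), Aif1 (1.83, SE 0.47), C1qb (1.62, SE 0.44) and C1qc (1.27, SE 0.43). The 4 receptors were at -0.44 to -0.76 and did not pass the test, nor an unadjusted p below 0.05, which 52% of all genes passed. For all 10 genes the ranges overlapped, while 1.88% of all genes had separate ranges. The estimates are over all groups, and the groups were unlike. Summed over the 6 genes, numbers 2 and 3 were at 118.3 and 119.2 CPM in Control. They were at 75.63 and 404.4 CPM in Glutamate, and at 31.65 and 496 CPM in Memantine. In Glutamate_vesicles they were at 114.6 and 179.4 CPM, in Glutamate_secret at 126.5 and 815 CPM, and in Glutamate_BPC at 347.2 and 580.6 CPM. The share of rRNA differed between the numbers as given above. With its log2 value as a covariate, 6 of 10 genes differed among the numbers, 1 of 10 (Cx3cr1) in number 2 against number 1 and 0 of 10 in number 3 against number 2, where 3 had an unadjusted p below 0.05 by edgeR's test. Over all genes the covariate left 0.472%, 0.0833% and 0.00695% called in these tests, and 22.8% had an unadjusted p below 0.05 in the last. In number 3 against number 1, 1.67% of all genes were called with the covariate and 1.52% without it. The median of the 10 genes there was 2.47 with the covariate and 2.38 without it.

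**Figure D3:**
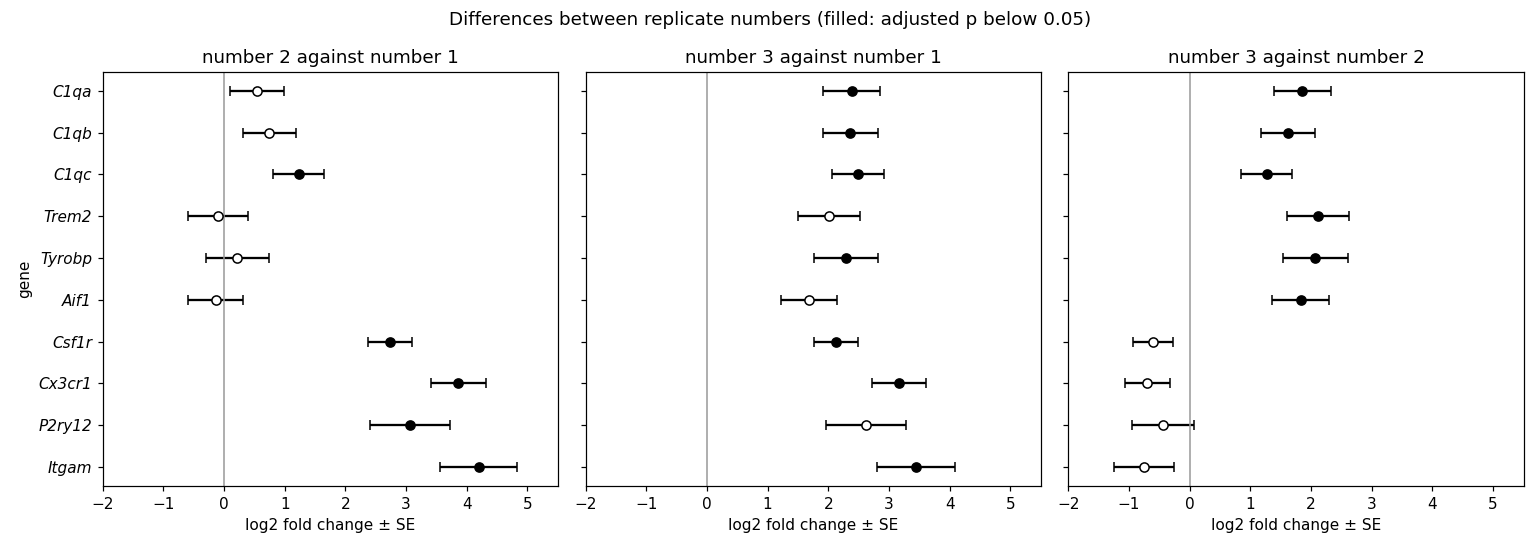
Differences between replicate numbers for the 10 genes, as log2 fold change (horizontal axis) with bars of 1 SE from edgeR's quasi-likelihood fit with group in the model. Filled symbols mark adjusted p below 0.05, which the 4 receptors and C1qc had in number 2 against number 1, and C1qa, C1qb, C1qc, Trem2, Tyrobp and Aif1 had in number 3 against number 2.

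The 10 genes thus divided by how they followed the numbers, with C1qa, C1qb, C1qc, Trem2, Tyrobp and Aif1 highest on average in number 3 and the 4 surface receptors lowest in number 1 within every group. This division was made after the values were seen and was not tested. Summed over the 6 genes, the median level was 85.0 CPM in number 1, 116.4 CPM in number 2 and 450.2 CPM in number 3. Summed over the 4 receptors it was 2.69, 35.2 and 20.7 CPM. The receptors therefore supplied 1.96 to 6% of the counts of the 10 genes in number 1, 10.8 to 33.9% in number 2 and 1.10 to 12.7% in number 3. These shares come from within each library and do not depend on its scaling. The highest shares were in Memantine 2 (33.9%) and Glutamate 2 (33.3%), and the lowest was in Glutamate_secret 3 (1.10%).

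**Figure D4:**
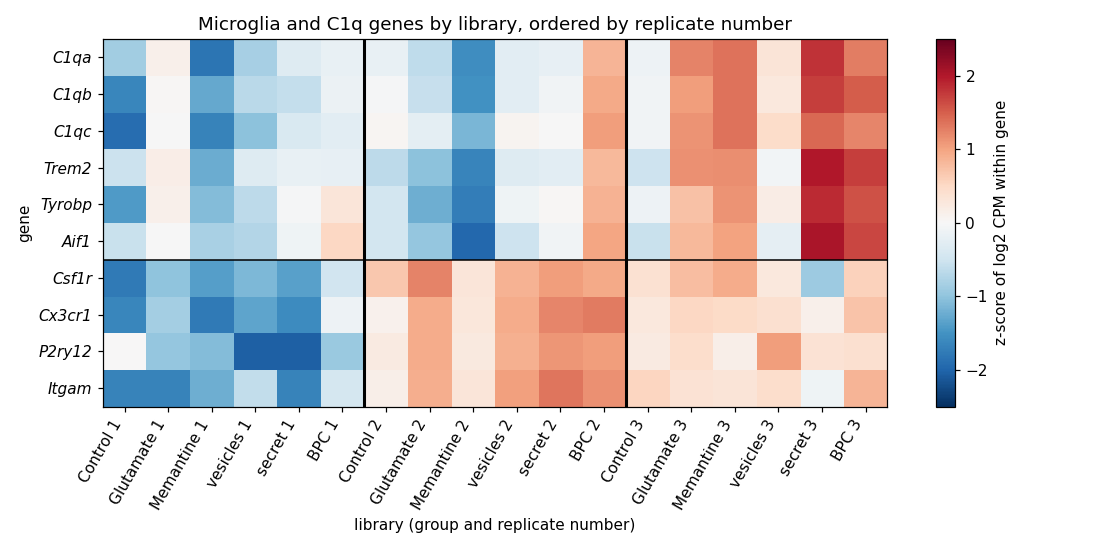
Expression of the 10 genes (rows) in the 18 libraries (columns, ordered by replicate number, with vertical lines between numbers), as log2 CPM scaled within each gene to a z-score. The upper 6 rows have their highest z-scores in Glutamate_secret 3, and in the lower 4 rows the library of number 1 is the lowest of each group.

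Correlations over the 18 libraries, which share replicate number, rRNA content and depth, describe the same division. Among the 6 genes, the Pearson r of log2 CPM in the 15 pairs had a median of 0.944 and a range of 0.806 to 0.971. After centring within replicate number the median was 0.928 (0.853 to 0.963), so that these genes followed one another also among libraries of 1 number. Among the 4 receptors the median of 6 pairs was 0.884, and after centring it was 0.466, with a lowest value of -0.005. The 24 pairs between the 2 sets had medians of 0.341 and 0.156. Cx3cr1 was the receptor nearest to the other 6 genes, with r up to 0.667 before and 0.578 after centring.

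**Figure D5:**
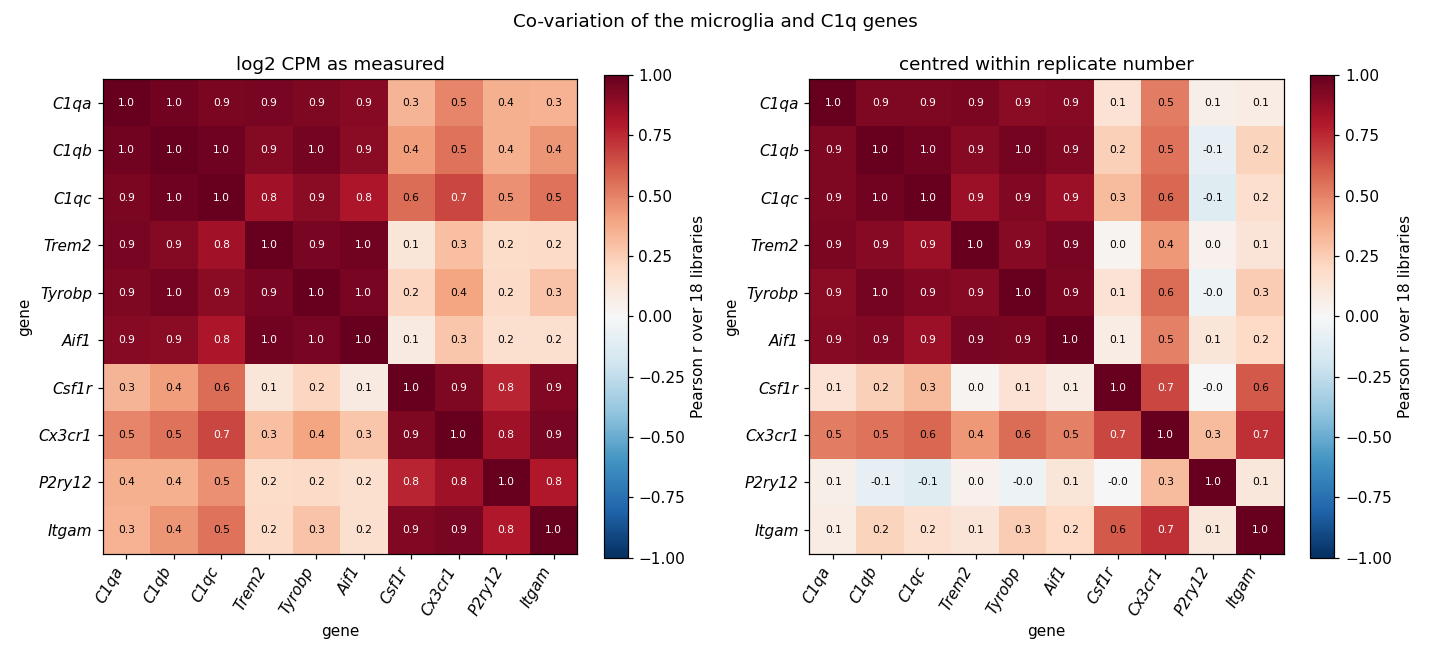
Pearson r between the log2 CPM of each pair of the 10 genes over 18 libraries, as measured (left) and after centring within replicate number (right), with the colour scale from -1 to 1. The block of 6 genes at the upper left keeps r of 0.853 or more after centring, while the block of 4 receptors at the lower right falls to a median of 0.466.

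The tested genes whose log2 CPM lay closest to the mean z-score of the 10 genes over the 18 libraries were Pld4 (r = 0.971), Cyth4 (0.962), Ptpn6 (0.948), Anxa3 (0.945), Cd33 (0.944) and Ctss (0.939). After centring within number they were Ctsd (0.919), the lysosomal protease cathepsin D, followed by Cyth4 (0.909), Pttg1ip (0.908), Pld4 (0.906) and Tmem176a (0.906). For the 6 genes alone the closest were Tmem176a (0.973), Ctsz (0.963) and Ctsd (0.937). For the 4 receptors alone they were C3 (0.976), the central complement component, Lpcat2 (0.971) and Irf8 (0.968), a transcription factor of microglia and other myeloid cells.

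Of 40 other genes of microglia and macrophages, all of them tested, 0 were called in any comparison of groups by edgeR's quasi-likelihood test. DESeq2 called Runx1 over the groups and in Glutamate_vesicles against Control (adjusted p = 0.0344 and 0.00755), and the replicate block called Runx1 in the latter (adjusted p = 0.0345) and Cd74 in Glutamate_BPC against Control (adjusted p = 0.0491). At an unadjusted p below 0.05, 3 were higher in Glutamate against Control, 3 in Glutamate_vesicles against Control, 5 in Glutamate_secret against Control and 9 in Glutamate_BPC against Control. Of all tested genes, 2.13%, 3.99%, 4.14% and 3.92% were higher in these comparisons, respectively. Tmem119, a microglial surface protein, was at 2.12 (SE 0.86), 2.36 (SE 0.86), 2.48 (SE 0.87) and 2.36 (SE 0.87) on the log2 scale in these comparisons. Runx1, a transcription factor of blood cells and microglia, was at 2.96 (SE 1.00), 4.06 (SE 1.02), 2.93 (SE 1.00) and 3.08 (SE 1.00), with a mean of 0.14 CPM in Control, 1.41 CPM in Glutamate and 2.96 CPM in Glutamate_vesicles. The list had a median of 0.74 in Glutamate against Control (all genes 0.085) and of 1.28 in Glutamate_BPC against Control (all genes -0.059). Among the numbers, 35 of 40 differed, as did 60.4% of all genes. In number 3 against number 1, 13 of the 40 were higher and none lower, while 1.14% of all genes were called higher. The 13 included Fcgr2b (3.91, SE 0.68), Irf8 (3.14, SE 0.61), Ctss (2.97, SE 0.36) and Gpr34 (2.70, SE 0.34). In number 2 against number 1, 23 of the 40 were higher and none lower, while 32.8% of all genes were called higher.

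Of 25 genes of the complement system beyond C1q, 22 were matched and 18 tested. None were called in a comparison of groups by edgeR's quasi-likelihood test, and 15 of 18 differed among the numbers, as did 60.4% of all genes. With the replicate block, Cd59 was called in Glutamate_vesicles against Control (adjusted p = 0.033) and Itgb2 in Glutamate_BPC against Control (adjusted p = 0.049). C3 had means of 11.6, 38.0 and 31.6 CPM in numbers 1, 2 and 3, and Itgb2, the partner chain of Itgam in CR3, had 0.873, 6.80 and 6.17 CPM. In number 3 against number 1, 7 of 18 were higher, while 1.14% of all genes were called higher. The 7 included Itgb2 (2.90, SE 0.39) and the anaphylatoxin receptor C3ar1 (2.24, SE 0.46). They also included the proteases C1r (1.29, SE 0.30) and C1s (1.76, SE 0.42), which bind C1q. In mean CPM over number, Itgb2 and C3 were lowest in number 1, as all of the 10 genes were. For Aif1 and Trem2 that order held for the means only. Their fitted estimates in number 2 against number 1 were -0.14 and -0.11.

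Of 17 tested ligands and partners of microglial receptors, 0 were called between groups by the same test and 11 differed among the numbers (60.4% of all genes did). Over the groups, 2 (Cd200 and Tgfb2) were called by DESeq2 and also with the replicate block. The lowest p values among the groups were those of Tgfb2, Cd200 and Cx3cl1, which were tested as signals that reach microglia from other cells. Cx3cl1, the ligand of Cx3cr1, had means of 51.0 CPM in Control, 20.4 CPM in Glutamate and 64.0 CPM in Memantine (adjusted p = 0.463 over the groups by edgeR). Cd200 was at -2.91 (SE 0.90, adjusted p = 0.329 by edgeR) in Glutamate against Control. It was called there by edgeR with the replicate block (adjusted p = 0.0398) and by DESeq2 (adjusted p = 0.0463). Of 18 tested genes of activated or phagocytic microglia, none were called between groups by edgeR's quasi-likelihood test without the block. Among the numbers, 12 differed (60.4% of all genes did). Ccl2, a chemokine also made by astrocytes, had the lowest p of that list among the groups, with means of 2.41 CPM in Control, 33.7 CPM in Glutamate and 188 CPM in Glutamate_vesicles (adjusted p = 0.134 over the groups by edgeR, and 2.35e-05 by DESeq2). With the replicate block, Spp1 and Ccl2 were called over the groups.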

How the data were processed

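RNA was measured in 18 libraries of rat neuroglial cortical cultures, 6 groups of 3. The deposited files hold expected counts, which the authors obtained with Salmon (mapping mode, Ensembl transcripts, rn6) from reads trimmed by Trimmomatic and Cutadapt, and summed per gene by tximport. The submitters' processing notes also name STAR. The strand setting of the counting and Salmon's version are not given in the sources used here. Labels and paper differ on the sequencing instrument. The supplement shows a clustering of intact, glutamate, memantine and vesicle cultures from batch-corrected counts and does not name the batch there. The paper speaks in general of unrelated cultures, but neither it nor the labels ties a library or number to a culture, so p-values measure the spread between these samples, which may be technical.

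Counts were rounded to whole numbers. Of 31463 rows, 14398 passed filterByExpr (minimum count 10, minimum total 15). Library sizes were scaled by TMM, and groups were tested with edgeR 4.0.16 (R 4.3.3) by the two-sided quasi-likelihood test in 1 model of 6 groups, with Benjamini-Hochberg adjustment over all tested genes and a call at adjusted p below 0.05. Replicate numbers were tested with the group as a covariate. Depth was 8409574 to 17206354 counts per library. The test was checked on simulated data. For the comparison of groups these data held no differences between replicate numbers. The check therefore did not cover the spread that such differences add to the tests of groups. Alternatives were DESeq2 1.42.0, its size factors, the likelihood-ratio test used by the study, the 78 rRNA rows removed, no filter, the log2 rRNA share as covariate, the replicate block, and leaving out each library.

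The 10 genes and the marker lists (other microglia and macrophage, complement, ligands, activated microglia, border macrophage and blood, neuron, astrocyte, oligodendrocyte, endothelial, fibroblast and mural) were chosen with earlier results of these data known. Genes named from a list were those with the smallest p over groups or over numbers. The genes Tmem119, Fcgr2b, C3ar1, C1r, C1s, Cd59, Cd74 and Olig1 were named after their values were seen. The genes most alike were the tested genes of highest Pearson r with the mean z-score. Levels between genes were not compared, since no gene lengths were used. Protein sequences were not used here.

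Libraries of the same number deviated together (every r above 0.1) in Memantine, Glutamate_secret and Glutamate_BPC against Glutamate (lowest r 0.573, 0.445 and 0.453) and in Glutamate_vesicles against Control (lowest r 0.208). In the other comparisons this held for numbers 1 and 2, with r from 0.311 to 0.845. It did not hold for number 3, where r ran from -0.454 to 0.00459.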

Additional observations from a re-analysis of the deposited data

How the results depend on the processing

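The count of 0 of 10 genes in the 6-group test and in each of the 9 comparisons of groups was 0 under every alternative, the replicate block and leaving out each library included. With the replicate block, Glutamate_BPC against Control had 7 of 10 genes at an unadjusted p below 0.05, against 21.6% of all genes, with the smallest adjusted p at 0.0703 (Tyrobp), and Aif1 had an adjusted p of 0.102 over the 6 groups. The replicate block changed no call of the 10 genes, and it called 1.74% of all genes in that comparison and 3.45% over the groups. The block moved the median of the 10 genes to 0.157 in Memantine against Control, to -0.672 in Memantine against Glutamate and to 0.177 in Glutamate_secret against Glutamate, and the log2 rRNA share as covariate moved it to 0.0422 in Memantine against Glutamate. With that covariate, which also reduced the calls over all genes among the numbers from 8695 to 68, 6 of the 10 genes differed among the numbers, 1 in number 2 against number 1 and 0 in number 3 against number 2. In number 3 against number 1 the median of the 10 genes was 2.47 with the covariate and 2.38 without it. Under the covariate, the estimates in number 2 against number 1 became 0.90 for Aif1 and 1.15 for Trem2. Those in number 3 against number 2 became 0.055 for Csf1r, 0.17 for Cx3cr1 and 0.30 for Itgam. Without the group term, Aif1 and Trem2 were at 0.065 and 0.11 in number 2 against number 1. Leaving out each library in turn, the calls were 10 throughout among the numbers, 4 to 6 in number 2 against number 1, 1 to 9 in number 3 against number 1 and 5 to 6 in number 3 against number 2. The estimates in number 2 against number 1 then ran from -0.40 to 0.13 for Aif1, from -0.37 to 0.14 for Trem2 and from -0.10 to 0.61 for Tyrobp. Those in Glutamate against Control ran from -0.30 to 0.82 for P2ry12 and from -0.49 to 1.25 for Itgam, and those in Glutamate_secret against Glutamate from -0.41 to 2.14 for Aif1 and from -0.31 to 2.33 for Tyrobp. DESeq2, the likelihood-ratio test and the absence of a filter called 10 of 10 in number 3 against number 1, and 10.7%, 9.18% and 1.53% of all genes they tested. The cause of these differences was not tested. P2ry12 and Itgam, with 10 and 11 counts in the libraries numbered 1, are limited by depth.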

Other observations

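Mrc1, a mannose receptor of border macrophages, was the gene of the border macrophage and blood list with the lowest p over the groups. In the order of replicate numbers it had 0, 32 and 28 counts in Control, 0, 69 and 18 in Glutamate, and 0, 25 and 12 in Memantine. It had 1, 5 and 1 counts in Glutamate_vesicles, 0, 2 and 0 in Glutamate_secret, and 0, 1 and 0 in Glutamate_BPC. The 9 libraries without secreted material thus held 184 counts and the 9 libraries with it held 10. Over the groups the adjusted p was 0.283 by edgeR, 0.0759 by DESeq2 and 0.0186 with the replicate block. With the block, Mrc1 was called against Control in Glutamate_secret (adjusted p = 0.039) and Glutamate_BPC (0.0486), but not in the vesicle group (0.0814). Against Glutamate, the log2 estimates were -4.01 (SE 1.47), -5.16 (SE 1.70) and -5.94 (SE 1.76) in Glutamate_vesicles, Glutamate_secret and Glutamate_BPC, each with an adjusted p of 1. Without the block, none of the 5 tested genes of this list were called between groups. All 5 differed among the numbers, as did 60.4% of all genes. Pf4 of this list had means of 0.823, 1.84 and 2.32 CPM in Control, Glutamate and Memantine. It had 1.82, 4.03 and 3.62 CPM in Glutamate_vesicles, Glutamate_secret and Glutamate_BPC. Cbr2 had 20.0, 24.1, 20.5, 17.3, 28.5 and 25.4 CPM in the same order of groups. Neither was lower in all 3 groups with secreted material, as Mrc1 was.

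Markers of the other cells of the culture were not called between groups in any list by edgeR's quasi-likelihood test. Over the groups, 3 of 8 neuronal genes were called by DESeq2 and 4 with the replicate block, and Olig1 of the oligodendrocyte lineage was called by DESeq2 (adjusted p = 0.00144). Among the numbers, 4 of 8 neuronal, 7 of 8 astrocyte, 4 of 7 oligodendrocyte lineage, 0 of 1 endothelial and 1 of 2 fibroblast and mural genes differed by edgeR's test. The share of all genes was 60.4%. Aqp4, the water channel of astrocytes, had means of 52.4, 498 and 178 CPM in numbers 1, 2 and 3, and was thus lowest in number 1 and highest in number 2. Spp1 (osteopontin), of the activated microglia list, was lowest in number 1, with means of 28.2, 99.3 and 115 CPM. By group its means were 21.3 CPM in Control, 40.4 CPM in Glutamate and 30.7 CPM in Memantine. They were 109, 119 and 164 CPM in Glutamate_vesicles, Glutamate_secret and Glutamate_BPC. With the replicate block it was called against Control in each of the last 3 (3.74%, 4.83% and 1.74% of all genes), and without the block in none by edgeR.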
